A study of Mus musculus with 6 samples.

Results

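Erythroid regulators and markers are described here as 8 genes, Gata1, Zfpm1, Epor, Car1, Car2, Alas2, Tfrc and Aqp1, out of 19938 genes with a measured signal. They were chosen by name with earlier results of these data known, and each had 1 probe set that carried its symbol alone. Gene expression was measured on Affymetrix Mouse Gene 1.0 ST arrays in cKit+Sca1+Lin- cells (KSL cells), the sorted bone marrow fraction that holds blood stem cells and early multipotent progenitors. The 3 arrays labelled DKO held RNA of mice with the genotype Runx1fl/fl;Runx3fl/fl;Mx1-Cre+. The 3 arrays labelled WT held that of littermates, which were Runx1fl/fl;Runx3fl/fl;Mx1-Cre-. Both were on a C57BL/6 background, with at least 3 generations of backcrossing. Both groups carried the floxed alleles, and the protocol text, which is shared by both, gives 7 injections of 600 µg pIpC from 4 weeks of age. The sample descriptions of both groups call the KSL cells untreated and do not say how this relates to the injections. pIpC mimics double-stranded RNA and switches on the interferon-responsive Mx1 promoter, so Cre is not limited to blood cells. Since no WT mouse had Cre, its own effects and those of losing Runx1 and Runx3 cannot be told apart. Each WT sample was a pool of 3 mice per the labels, the labels do not say whether the DKO samples were pooled, and the design text counts 6 mice in all, so n = 3 may stand for pools or for single mice. KSL sorting removes cells with erythroid and other lineage antigens, so these genes are read here in cells that precede the red cell lineage.

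Red cell formation is driven by the transcription factor Gata1, which binds DNA through zinc fingers and works with the cofactor FOG1, encoded by Zfpm1. The erythropoietin receptor, encoded by Epor, signals through the kinase Jak2 and the Stat5 proteins and keeps red cell precursors alive. Maturing precursors take up iron through the transferrin receptor (Tfrc), start heme synthesis with the enzyme Alas2, and fill with haemoglobin, carbonic anhydrases (Car1, Car2) and the water channel Aqp1. Several of these genes are also used elsewhere: Gata1 and Zfpm1 act in megakaryocytes, Gata1 in mast cells and eosinophils, and Tfrc in most dividing cells.

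Values are log2 signals as deposited, where 1 unit is a doubling, and differences are DKO minus WT from limma, a linear model with moderated variances fitted over all 19938 genes. A gene was called when its Benjamini-Hochberg adjusted p was under 0.05. Of the 8 genes, 0 rose, 1 fell and 7 did not pass. Over all genes 9.71% rose and 7.69% fell, 17.4% in all, so the members' share of 1 in 8 is close to the background. At an unadjusted p under 0.05 the count was 4 of 8, with 2 higher (Car2 and Aqp1) and 2 lower (Car1 and Zfpm1), against 30.9% of all genes. Their DKO and WT arrays did not overlap in 3 of 8 cases, against 35.8% of all genes. The median difference of the 8 genes was 0.083, with 5 positive and 3 negative, beside -0.040 over all genes.

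**Figure D1:**
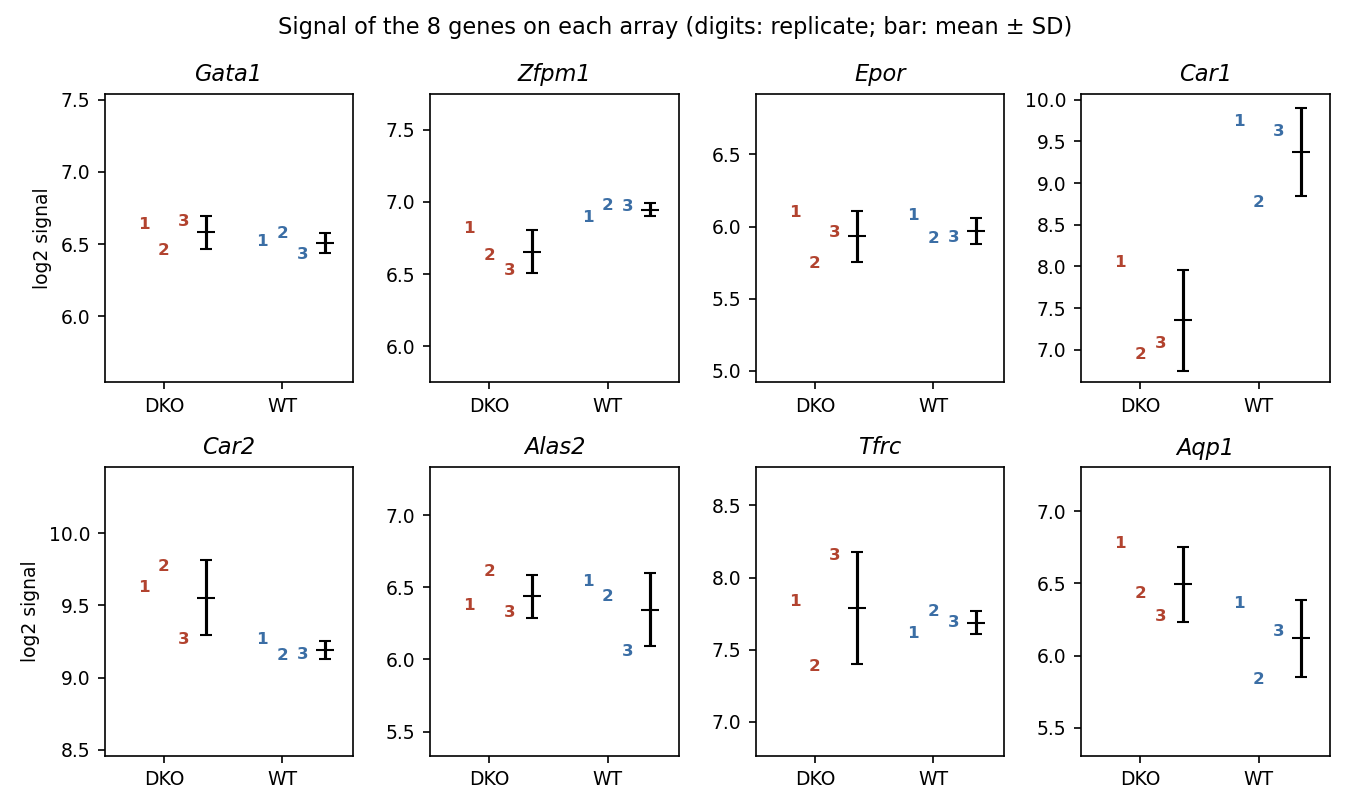
Log2 signal of each of the 8 genes (vertical axis) on the 3 DKO arrays (left, red) and the 3 WT arrays (right, blue), with digits giving the replicate number and black bars the mean ± SD. Car1 is lower on all 3 DKO arrays, at 6.95 to 8.05, than on the WT arrays, at 8.77 to 9.74, while the differences of the other 7 genes run from -0.29 to 0.37.

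The targeted genes were read first. Runx1 signal was 9.22, 9.37 and 9.28 on the DKO arrays and 8.49, 8.53 and 8.38 on the WT arrays, a difference of 0.82 (limma adjusted p = 0.000427) that goes against a loss of the transcript. Runx3 signal was 7.40, 7.40 and 7.34 in DKO and 7.53, 7.59 and 7.47 in WT (difference -0.15, limma adjusted p = 0.253). A whole-gene signal includes probes outside the deleted exons, whose positions were not used here, so DKO means the arrays labelled DKO throughout. Pearson correlations over all genes were at least 0.9895 within the groups and at most 0.9797 between them. Kit, the receptor used for sorting, rose by 0.73 (10.49 ± 0.20 in DKO and 9.75 ± 0.11 in WT, SD, n = 3 each, limma adjusted p = 0.00289). Of 10 tested genes of the sorting and lineage antigen list 3 rose and 1 fell, the others being Slamf1 and Cd48, with differences of 1.95 and 1.46, and Flt3, with -1.32 (adjusted p = 6.39e-05, 7.18e-05 and 0.000434). Ly6a, which encodes Sca1, is not analysed here. None of the 5 tested lineage antigen genes passed: differences were 0.058 for Cd3e, -0.14 for Cd4, -0.011 for Cd8a, 0.36 for Itgam and -0.15 for Ly6g (adjusted p = 0.693, 0.547, 0.955, 0.139 and 0.336). Itgam, with the widest difference of these, was at 6.32 ± 0.25 in DKO and 5.96 ± 0.24 in WT.

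Gata1, the central erythroid transcription factor, showed no detectable difference. Its signal was 6.63, 6.45 and 6.66 on the DKO arrays, against 6.52, 6.57 and 6.43 on the WT arrays. The 2 groups overlapped, with DKO replicate 2 near the lowest WT array. The difference was 0.073 with a 95% interval of -0.14 to 0.28 (SE 0.093, limma adjusted p = 0.644), so a rise of over 0.28 or a fall of over 0.14 lies outside the interval.

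Zfpm1, the gene of the Gata1 cofactor FOG1, had signals of 6.82, 6.63 and 6.53 on the DKO arrays, against 6.89, 6.98 and 6.97 on the WT arrays. All 3 DKO arrays were below all 3 WT arrays, and the WT arrays were close together (SD 0.046) while the DKO arrays were spread more widely (SD 0.15). The difference of -0.29 (95% interval -0.51 to -0.070, limma adjusted p = 0.0723) did not pass the threshold. It passed when the dimmest 50% of genes were left out of the fit and the adjustment (adjusted p = 0.0465, in a range of 0.0465 to 0.232 over 17 alternatives). Within an array, the log2 difference between Gata1 and Zfpm1 was -0.18, -0.18 and 0.13 in DKO and -0.37, -0.41 and -0.54 in WT. It was 0.36 higher in DKO, with no overlap (exact permutation p = 0.1, two-sided, the smallest that 3 against 3 arrays allow). The adjusted p over the 2 gene pairs compared in this way was also 0.1.

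Among the other 6 genes of the GATA and FOG families 0 passed limma's adjusted threshold, while 2 were higher and 1 lower at an unadjusted p under 0.05. Gata2, the family member of stem and early progenitor cells, was at 7.26 ± 0.12 in DKO and 7.02 ± 0.15 in WT (difference 0.24, adjusted p = 0.16). Gata4, known from heart and gut, was at 6.23 ± 0.13 in DKO and 6.32 ± 0.11 in WT (difference -0.091, adjusted p = 0.592). The median difference of the 6 genes was -0.0047.

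Of 18 further transcription factors of the red cell lineage, 2 rose, 4 fell and 12 did not pass, with a median difference of -0.0051. Sox6, which in mouse red cell precursors takes part in silencing embryonic globin, rose most. Its signal was 7.10, 7.64 and 6.79 on the DKO arrays, against 6.06, 5.59 and 5.98 on the WT arrays, so that the groups did not overlap (difference 1.30, limma adjusted p = 0.00263). Klf1, the factor that activates adult beta-globin and many other red cell genes, fell. Its signal was 5.72, 5.60 and 5.33 on the DKO arrays, against 6.08, 5.96 and 6.25 on the WT arrays (difference -0.54, limma adjusted p = 0.0136). Without DKO replicate 3 the Klf1 difference was -0.43 and no longer passed (adjusted p = 0.0526). E2f2, a cell cycle factor that acts in red cell precursors of mice, fell by 0.51 (5.69 ± 0.20 in DKO and 6.20 ± 0.07 in WT, adjusted p = 0.0124).

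The other called factors had smaller differences and were picked after their values were seen. Nfe2, a globin and platelet gene activator, was higher by 0.48 (adjusted p = 0.0114). The gene of the complex-forming protein Ldb1 and Tcf3, an E-protein gene, were lower, with differences of -0.43 and -0.48 (adjusted p = 0.0211 and 0.017). The call of Nfe2 was lost with quantile normalisation and cyclic loess, and those of Ldb1 and Tcf3 without DKO replicates 1 or 3. Ldb1 was also lost without WT replicate 1, and Tcf3 without WT replicate 3. Tal1 and Lmo2, which encode partners of Gata1 in a DNA-binding complex, had differences of 0.27 and -0.28 that did not pass (adjusted p = 0.122 and 0.0672).

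Epor, the erythropoietin receptor gene, had signals of 6.10, 5.75 and 5.96 on the DKO arrays, against 6.08, 5.92 and 5.93 on the WT arrays. The groups overlapped almost fully. The difference was -0.037 with a 95% interval of -0.28 to 0.21 (limma adjusted p = 0.853), and its sign changed with the normalisation. Sequences upstream of Epor and Alas2 are printed because these were the members whose listed promoter held the letters AGATAA, a core form of the GATA site. They are the 250 bases before the gene start in RefSeq's GRCm38.p6, at chr9:21963577-21963826 (minus strand) for Epor and chrX:150547167-150547416 (plus strand) for Alas2, written 5′ to 3′ along the gene. Capitals mark AGATAA and TGTGGT, a core form of the RUNX site, on either strand.
Epor: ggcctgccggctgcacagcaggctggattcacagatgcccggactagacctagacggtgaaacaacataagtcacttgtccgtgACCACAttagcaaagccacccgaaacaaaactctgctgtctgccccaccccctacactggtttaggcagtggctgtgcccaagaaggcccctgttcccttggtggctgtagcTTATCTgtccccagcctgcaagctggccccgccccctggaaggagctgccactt
Alas2: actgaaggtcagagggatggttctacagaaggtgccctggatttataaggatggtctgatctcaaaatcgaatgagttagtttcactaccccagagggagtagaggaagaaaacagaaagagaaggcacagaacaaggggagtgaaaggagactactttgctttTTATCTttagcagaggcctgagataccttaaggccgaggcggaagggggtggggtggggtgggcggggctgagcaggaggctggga

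The GATA letters lay 49 to 54 bases before the listed start of Epor and 81 to 86 bases before that of Alas2. The RUNX letters were found upstream of Epor only, 161 to 166 bases before its start. The table held 7 promoters for 6 of the 8 genes (Tfrc has 2), and Car1 and Car2 were not matched. Of these 7, 2 held AGATAA and 1 held TGTGGT on either strand, while 9.99% and 14% of 32851 promoters of the same length did. The letters CACCC, a core form of the Klf1 site, were in all 7 and in 52% of all promoters. The letters of these motifs do not overlap each other in the Epor sequence. The matches describe these letters and show no binding.

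Of 11 tested genes of erythropoietin signalling, 2 rose, 1 fell and 8 did not pass, with a median difference of 0.072. Jak2, the kinase bound to the receptor, rose. Its signal was 8.77, 8.76 and 8.68 on the DKO arrays, against 8.23, 7.84 and 8.18 on the WT arrays, with no overlap (difference 0.66, 1.58-fold, limma adjusted p = 0.00421). Ptpn6, the phosphatase that shuts the receptor off, was at 8.76 ± 0.07 in DKO and 8.68 ± 0.08 in WT and did not pass (difference 0.081, adjusted p = 0.581). The other calls were those of Stat5b, higher by 0.40 (adjusted p = 0.0139), and the feedback inhibitor gene Socs3, lower with a difference of -0.35 (adjusted p = 0.0417). These 2 were picked after their values were seen. Stat5b lost its call without DKO replicate 1 or 2 and with the span and signal trend removed, and Socs3 in 11 of 17 alternatives.

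Car1, which encodes a cytosolic carbonic anhydrase of red cells and gut, was the member that fell. Its signal was 8.05, 6.95 and 7.07 on the DKO arrays, against 9.74, 8.77 and 9.62 on the WT arrays. Every DKO array was below every WT array, with the highest DKO array (replicate 1) nearest to the lowest WT array (replicate 2). Car1 signal fell by 2.02 on the log2 scale, to 0.247 of the WT level (SE 0.311, 95% interval -2.72 to -1.32, limma adjusted p = 0.00243). In bulk RNA, fewer cells that express a gene and less of its RNA per cell cannot be told apart. The fall ranked 13 of 19938 genes from the most negative difference, and it kept its call in 17 of 17 alternatives, at -2.37 to -1.82. Several of these alternatives left the Car1 difference at -2.02, as they alter only the variance, the adjustment or the choice of probe set. Car1 also varied much within each group (SD 0.606 in DKO and 0.530 in WT), at the 99.8th percentile of all genes in DKO and the 99.4th in WT.

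Car2, the high-activity carbonic anhydrase of red cells and osteoclasts, did not follow Car1. Its signal was 9.63, 9.77 and 9.26 on the DKO arrays, against 9.26, 9.15 and 9.16 on the WT arrays. The DKO arrays were above the WT arrays, DKO replicate 3 (9.263) only just so beside WT replicate 1 (9.262). The difference of 0.36 (95% interval 0.076 to 0.65, limma adjusted p = 0.0833) did not pass. Without DKO replicate 3 it was 0.51 and passed (adjusted p = 0.0194), and with quantile normalisation it was 0.20 (adjusted p = 0.402). Within an array, the log2 difference between Car1 and Car2 was -1.58, -2.82 and -2.20 in DKO and 0.48, -0.38 and 0.46 in WT. Only the change between the groups can be read from these values, since each probe set has its own scale. That change was -2.38, with no overlap (exact permutation p = 0.1, two-sided, the smallest possible, and 0.1 adjusted over the 2 pairs). This separation was fixed beforehand, since Car1 was lower and Car2 higher on every DKO array than on every WT array. The permutation p therefore adds nothing to the values of the 2 genes.

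Car1 and Car2 are neighbours on chromosome 3, where the RefSeq gene table lists 4 protein-coding carbonic anhydrase genes in a row, Car13, Car1, Car3 and Car2. Car13 signal was 6.48, 6.27 and 6.32 on the DKO arrays, against 6.02, 5.85 and 5.70 on the WT arrays (difference 0.50, limma adjusted p = 0.0115). Car3 signal was 5.25, 5.35 and 5.11 on the DKO arrays, against 5.82, 5.50 and 5.55 on the WT arrays (difference -0.39, limma adjusted p = 0.0401). The groups did not overlap in any of the 4 genes, with Car13 and Car2 higher and Car1 and Car3 lower in DKO, although Car2 did not pass. Over all genes 35.8% had no overlap. Of the genes that flank this row, Rbis was also lower without overlap (difference -0.57, limma adjusted p = 0.0657). The other, Gm9733, overlapped (difference -0.062, limma adjusted p = 0.74). The Car13 call was lost without DKO replicate 1 (adjusted p = 0.0531) and the Car3 call in 10 of 16 alternatives. Car3 was picked after its value was seen.

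**Figure D2:**
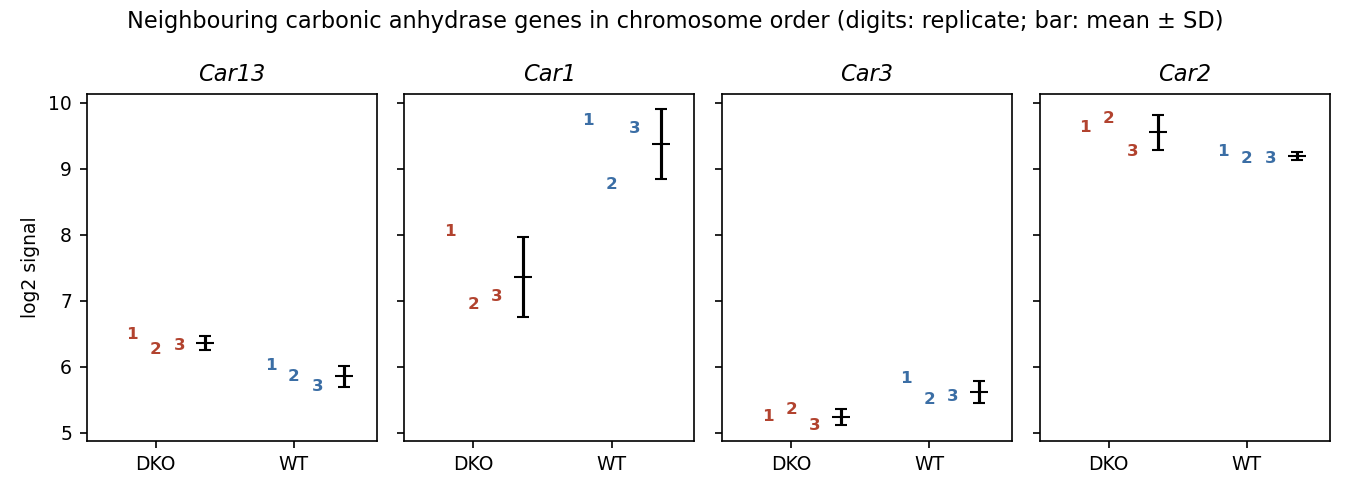
Log2 signal of Car13, Car1, Car3 and Car2 in the order in which they lie on chromosome 3, on the 3 DKO arrays (left, red digits) and the 3 WT arrays (right, blue digits), with the mean ± SD in black. Car1 shows the widest gap between the groups, -2.02, against 0.50, -0.39 and 0.36 for Car13, Car3 and Car2, and heights are not comparable between genes.

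Over the other 14 carbonic anhydrase genes 2 rose, 1 fell and 11 did not pass, with a median difference of -0.080. Car15, a membrane-bound form, was the other gene that rose (difference 0.47, limma adjusted p = 0.0123). It was picked after its value was seen, and its call was lost without DKO replicate 1 (adjusted p = 0.0509). Car9, a tumour-associated membrane form, was at 6.25 ± 0.05 in DKO and 5.95 ± 0.13 in WT (difference 0.30, adjusted p = 0.0564). It passed in 7 of 17 alternatives, with cyclic loess at 0.37 (adjusted p = 0.0271), and 4 genes of the family rose there and with the span and signal trend removed.

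Alas2, the red cell form of the enzyme that starts heme synthesis, had signals of 6.38, 6.61 and 6.33 on the DKO arrays, against 6.54, 6.44 and 6.06 on the WT arrays. The groups overlapped, and WT replicate 3 was the lowest of the 6 arrays. The difference was 0.093 with a 95% interval of -0.21 to 0.40 (limma adjusted p = 0.69).

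Of 14 further genes of heme synthesis and transport 1 rose, 1 fell and 12 did not pass, with a median difference of -0.13. Alad, the enzyme after the Alas step, fell. Its signal was 7.22, 7.12 and 7.48 on the DKO arrays, against 7.85, 7.85 and 7.82 on the WT arrays, and the groups did not overlap (difference -0.57, limma adjusted p = 0.00598). The gene that rose, Urod, which encodes a later enzyme of the pathway and was picked after its value was seen, differed by 0.33 (adjusted p = 0.0211), and its call was lost in 5 of 17 alternatives. Alas1, the form used by all cells, was at 6.87 ± 0.23 in DKO and 7.19 ± 0.09 in WT and did not pass (difference -0.32, adjusted p = 0.109). Slc25a37, which carries iron into mitochondria, and Tmem14c, which helps move heme precursors there, had differences of 0.30 and 0.20 that did not pass (adjusted p = 0.0824 and 0.285).

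Tfrc, the transferrin receptor gene, had signals of 7.83, 7.38 and 8.15 on the DKO arrays, against 7.61, 7.76 and 7.69 on the WT arrays. The WT arrays lay inside the DKO range, and DKO replicate 2 was the lowest and DKO replicate 3 the highest of all. The difference was 0.10 with a 95% interval of -0.27 to 0.47 (limma adjusted p = 0.733). The SD was 0.386 in DKO and 0.0770 in WT, and the difference was 0.30 without DKO replicate 2 and -0.082 without DKO replicate 3, neither of which passed.

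Of 12 further genes of iron handling 2 rose, 1 fell and 9 did not pass, with a median difference of -0.066. Ncoa4, the receptor that sends ferritin to lysosomes for iron release, rose. Its signal was 9.66, 9.78 and 9.48 on the DKO arrays, against 8.81, 8.71 and 8.74 on the WT arrays (difference 0.89, 1.85-fold, limma adjusted p = 0.000464). Ireb2, an iron sensor that binds RNA and stabilises the Tfrc transcript when iron is low, also rose, with 8.78, 8.52 and 8.88 on the DKO arrays, against 8.18, 8.05 and 8.01 on the WT arrays (difference 0.65, limma adjusted p = 0.00398). Neither gene's groups overlapped, and both calls held in 17 of 17 alternatives. The ferritin light chain gene Ftl1, picked after its value was seen, was lower, with a difference of -0.40 (adjusted p = 0.0238), and lost its call in 4 of 17 alternatives. Fth1, the heavy chain, was at 11.82 ± 0.02 in DKO and 11.71 ± 0.05 in WT (difference 0.11, adjusted p = 0.401).

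Aqp1, the water channel of the red cell membrane and of endothelium, had signals of 6.78, 6.43 and 6.27 on the DKO arrays, against 6.36, 5.83 and 6.17 on the WT arrays. DKO replicate 3 lay below WT replicate 1, so the groups overlapped. The difference was 0.37 with a 95% interval of 0.016 to 0.73 (limma adjusted p = 0.144), and it missed the threshold in 17 of 17 alternatives (0.23 to 0.49). Over the other 10 aquaporin genes limma called 0 higher, also 0 at an unadjusted p under 0.05, and 1 lower, while 9 did not pass. Aqp5, a channel of secretory glands, was at 6.62 ± 0.10 in DKO and 6.92 ± 0.05 in WT (difference -0.30, adjusted p = 0.0455), a call lost in 11 of 17 alternatives. Aqp9, which also carries glycerol, was at 6.83 ± 0.25 in DKO and 7.05 ± 0.10 in WT (difference -0.23, adjusted p = 0.266).

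**Figure D3:**
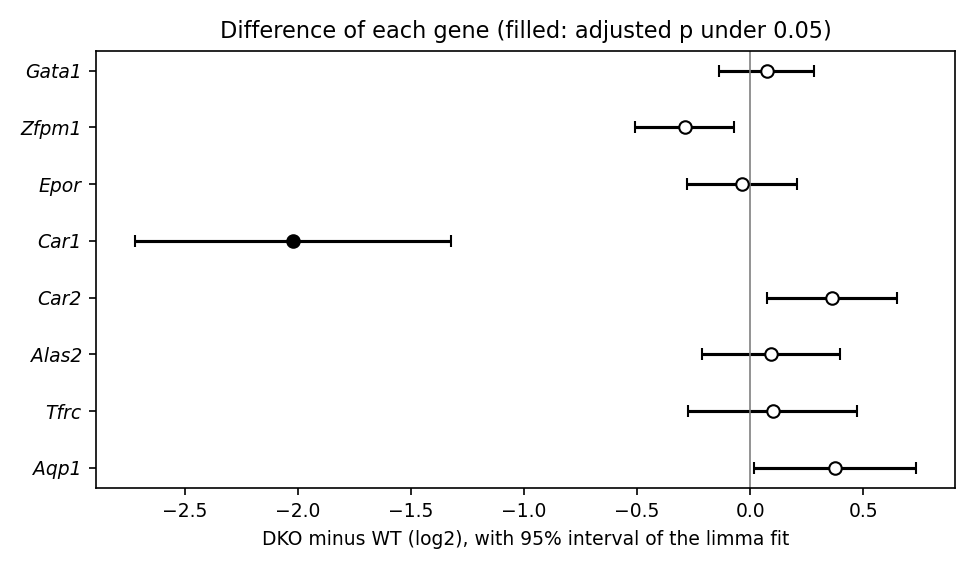
DKO minus WT difference of each of the 8 genes on the log2 scale (horizontal axis) with the 95% interval of the limma fit, filled where the adjusted p was under 0.05. Car1 at -2.02 is the filled point, while Gata1, Epor, Alas2 and Tfrc have intervals that include 0.

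Of 17 tested genes of the red cell membrane and its skeleton 0 rose, 2 fell and 15 did not pass limma's threshold, with a median difference of -0.065 and 1 gene higher at an unadjusted p under 0.05. Tspo2, a protein of late red cell precursors, fell, with 5.67, 5.51 and 5.53 on the DKO arrays, against 5.89, 5.99 and 6.34 on the WT arrays (difference -0.50, limma adjusted p = 0.0214). Kel, a blood group antigen gene, fell by 0.61 (4.46 ± 0.26 in DKO and 5.06 ± 0.27 in WT, adjusted p = 0.0288). Its mean in DKO was below the lower quartile of every array (4.63 to 4.66). Tspo2 lost its call without DKO replicate 2 or 3, and Kel in 5 of 15 alternatives. Slc4a1, the anion exchanger of the red cell membrane, was at 6.07 ± 0.10 in DKO and 6.13 ± 0.08 in WT (difference -0.060, adjusted p = 0.703). Only 4 of 11 listed globin and globin chaperone genes could be tested, since 6 adult alpha and beta globin genes lie in probe sets that carry several symbols and the chaperone gene Ahsp is not analysed here. Of these 4, 0 were called by limma, also 0 at an unadjusted p under 0.05. Among them the embryonic Hba-x was at 5.70 ± 0.16 in DKO and 5.68 ± 0.11 in WT, and Hbq1a at 4.41 ± 0.16 in DKO and 4.72 ± 0.37 in WT (adjusted p = 0.911 and 0.256).

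The members did not vary together from array to array. Among the DKO arrays, replicate 2 was the lowest for Gata1, Epor, Car1 and Tfrc but the highest for Car2 and Alas2. Among the WT arrays, replicate 2 was the lowest for Car1, Car2, Epor and Aqp1, and replicate 3 the lowest for Alas2 and Gata1. Deviations from the group means of Car1 and Aqp1 ran in parallel over the 6 arrays (Pearson r = 0.94), as did those of Gata1 and Tfrc (r = 0.82), while those of Car2 and Tfrc were opposed (r = -0.94). These r values were the most extreme among all pairs of members and were picked after they were seen. They describe 6 points that share the arrays' amplification and normalisation. Over the uncentred signals r was -0.30 for Car1 and Aqp1, 0.81 for Gata1 and Tfrc and -0.43 for Car2 and Tfrc. The SD was larger in DKO than in WT for 6 of 8 members, against 39.2% of all genes.

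By the likeness rule, the genes with the highest Pearson r over the 6 arrays were Ttk, Ncapg and Stil for Gata1 (r = 0.993, 0.991 and 0.990) and Guca2a, Sowahc and Rprd1b for Car1 (r = 0.995, 0.995 and 0.994). Those for Zfpm1 began with 1700120B22Rik and C1qtnf4 (r = 0.994 and 0.988). Over the 24 such genes of the 8 members r ran from 0.973 to 0.997, a range found among 19938 genes compared over 6 points.

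Markers of other lineages that use Gata1 differed between the groups beside these genes. Of 13 tested megakaryocyte and platelet genes 7 rose, 0 fell (also 0 at an unadjusted p under 0.05) and 6 did not pass, with a median difference of 0.40. Gp5, a platelet glycoprotein, rose by 2.80 (8.85 ± 0.20 in DKO and 6.05 ± 0.33 in WT, limma adjusted p = 1.74e-05). Pf4, Ppbp and Vwf of this list had negative differences of -0.51, -0.44 and -0.12 that did not pass (limma adjusted p = 0.256, 0.427 and 0.388). All its other tested genes had positive differences. Summed linear signal over this list was 3710 to 4997 in DKO and 2185 to 2598 in WT. Of 14 mast cell and basophil genes 6 rose, 3 fell and 5 did not pass, with summed signals of 3195 to 3859 in DKO and 907.7 to 994 in WT. Cpa3, the mast cell carboxypeptidase gene, was at 10.96 ± 0.09 in DKO and 7.54 ± 0.14 in WT (difference 3.43, limma adjusted p = 5.6e-07). Cd200r3 and Ms4a2, which encode a surface receptor and a chain of the IgE receptor, rose by 3.62 and 2.24 (adjusted p = 2.74e-06 and 0.000683). The 3 genes of this list that fell were Mcpt8, Prss34 and Fcer1a. Their differences were -1.32, -0.82 and -0.68 (limma adjusted p = 0.00313, 0.0109 and 0.0421), and Fcer1a was dim, at 3.85 in DKO and 4.53 in WT. The dim mast cell protease genes Cma1 and Mcpt4 were at 4.28 and 3.63 in DKO and 4.32 and 3.50 in WT, below the lower quartile of every array (4.63 to 4.66). Of 8 tested eosinophil genes 2 rose, 1 fell and 5 did not pass, with summed signals of 331.6 to 356.2 in DKO and 317.2 to 403.6 in WT. Siglecf was at 6.74 ± 0.13 in DKO and 6.05 ± 0.12 in WT, and Il5ra, the interleukin-5 receptor gene, at 4.83 ± 0.18 in DKO and 4.08 ± 0.19 in WT (differences 0.70 and 0.76, limma adjusted p = 0.00207 and 0.00338). The WT mean of Il5ra was below the lower quartile of every array. Prg2, a granule protein gene, fell, with 5.74 ± 0.26 in DKO and 6.69 ± 0.39 in WT (adjusted p = 0.00894). The eosinophil genes Epx and Ccr3 were at 4.82 and 4.26 in DKO and 4.84 and 4.39 in WT. The part of these cells in the values of Gata1, Zfpm1 and Car1 was not tested.

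Of 11 tested granulocyte and monocyte markers 5 fell and 1 rose, with summed signals of 3304 to 4659 in DKO and 5327 to 5752 in WT. Of 12 lymphoid priming markers 3 fell and 0 rose (also 0 at an unadjusted p under 0.05), with summed signals of 650.8 to 874.1 in DKO and 1561 to 1910 in WT. Among the erythroid lists, summed signals did not overlap for iron uptake and storage (6437 to 6629 in DKO and 5699 to 6088 in WT), erythropoietin signalling (2106 to 2224 in DKO and 1812 to 1957 in WT) and the GATA and FOG family (412.4 to 447.4 in DKO and 392.1 to 410.7 in WT), all higher in DKO. They overlapped for the other 6, among them the 17 red cell membrane genes at 1456 to 1545 in DKO and 1426 to 1569 in WT. Such sums follow the strongest genes of a list.

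**Figure D4:**
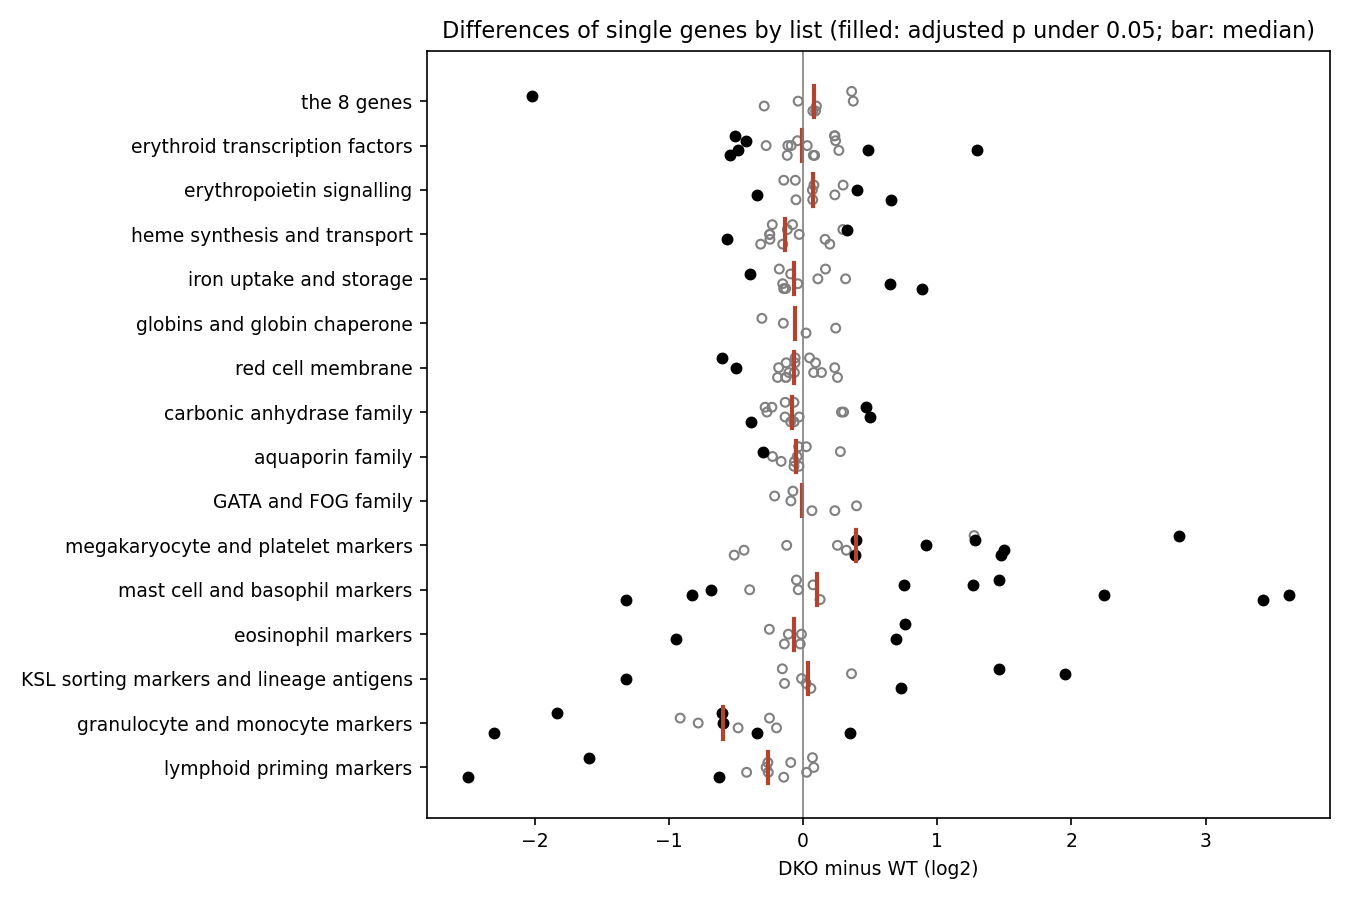
DKO minus WT differences on the log2 scale (horizontal axis) of the 8 genes and of each gene list (rows), 1 point per gene, filled where the adjusted p was under 0.05, with a red bar at the median. Medians of the erythroid lists lie between -0.13 and 0.072, those of the megakaryocyte, mast cell, KSL, eosinophil, lymphoid and granulocyte lists at 0.40, 0.10, 0.041, -0.065, -0.26 and -0.60.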

How the data were processed

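The deposited table gives log2 signals for each probe set. Sample titles name gene-level RMA (background correction, quantile normalisation and probe summary), while the design text names MAS 5.0. With a range of 1.25 to 13.7 and medians of 5.88 to 5.91 per array, they look like log2 RMA values. Per the submitters' processing notes, the software was Affymetrix Expression Console 1.0. No source used here names the build behind the array annotation, and the only coordinates are those of RefSeq's promoter table, which is on GRCm38.p6.

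Of 35556 probe sets, those with exactly 1 symbol (21789) were kept, with the highest mean over 6 arrays per gene, which left 19938 genes without a filter on dim signals. limma 3.58.1 in R 4.3.3 (lmFit, eBayes, two-sided) compared 3 DKO with 3 WT arrays, with 5.52 prior and 4 residual degrees of freedom, and was tested on simulated data. The number of arrays limits the precision. The span and signal trend is a loess fit of the difference on gene span and mean signal. No value was left out or imputed.

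The members and the 15 gene lists were chosen with earlier results of these data known. Named list genes are up to 4 per list with the smallest p among calls of at least 0.5, or the 2 strongest signals where fewer than 2 pass. Other genes named were chosen after their values were seen.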

Additional observations from a re-analysis of the deposited data

How the results depend on the processing

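Car1 kept its direction and call in 17 of 17 alternatives, and Gata1 and Aqp1 stayed positive without a call. Not every alternative can move a member's difference, since each member has 1 probe set and some settings change only the variance or the adjustment. Among the members 2 were called lower, not 1, without the dimmest 50% of genes, where Zfpm1 at -0.29 joined Car1. Leaving out 1 array gave 0 to 1 members called higher, the 1 being Car2 without DKO replicate 3. The single-array ranges were 0.25 to 0.51 for Car2, -0.12 to 0.057 for Epor, -0.050 to 0.19 for Alas2 (negative without WT replicate 3) and -0.082 to 0.30 for Tfrc (negative without DKO replicate 3). Epor was at 0.018 with quantile normalisation, 0.0087 with median centring, 0.030 with cyclic loess and 0.035 with the span and signal trend removed. Ptpn6 was at -0.086, -0.057 and -0.014 with quantile normalisation, cyclic loess and the trend removed, and Hba-x at -0.071 to 0.082 without single arrays. The cause of these changes was not tested. Of 20 called genes in the erythroid lists 6 kept the call in every alternative run for them (Sox6, E2f2, Jak2, Alad, Ireb2 and Ncoa4). Over all lists 52 of 173 genes were called, and 35 without DKO replicate 1. Over all genes the rises numbered 1250, not 1936, without DKO replicate 3, and the falls 843 to 876, not 1533, without a DKO array.

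Over all genes, deviations of same-numbered arrays correlated at -0.0087, -0.095 and -0.042. These values show no pairing by replicate number over all genes, and they cannot exclude one that acts on some genes. In the fit with a replicate block, Car1 stayed at -2.02 (limma adjusted p = 0.000133), and 48 list genes were called. Dim probe sets and 3 arrays a group limit what small differences can be seen.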
